A study of Rattus norvegicus with 12 samples.

Results

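Overexpression of Cklf1 in primary rat aortic smooth muscle cells that received no cytokine was examined in 6 of the series' 12 samples: 3 given an adenovirus carrying Cklf1 (Ad-Cklf1) and 3 given an adenovirus carrying green fluorescent protein (Ad-GFP). The 6 samples were chosen by their titles. All came from the medial layer of the thoracic aorta of male Sprague-Dawley rats (Sprague-Dailey in the labels), were at passage 4, and were kept in medium with 0.2% serum for 24 to 32 h after infection. The other 6 samples carried hairpin viruses (Ad-shRNA scramble or Ad-shRNA Cklf1) and received tumour necrosis factor alpha (TNF) as well, at 25 µg/L over 24 h. Every sample received an adenovirus, so no group shows uninfected cells, and the labels give neither the promoter of the inserts nor the dose of virus. Not given in the sources used here are the age and number of the animals and whether the 3 samples of a group came from separate cultures. The p-values therefore measure only how these samples spread, and that spread may be technical.

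CKLF1, chemokine-like factor 1, is a small cytokine that attracts leukocytes and can signal through the chemokine receptor CCR4. It belongs to the CMTM family, whose other members carry a membrane-spanning MARVEL domain. Vascular smooth muscle cells contract in the healthy vessel wall, and after injury they can turn to dividing, migrating and secreting matrix and cytokines.

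Expression was given as FPKM (fragments scaled to the length of the transcript and to all fragments of the sample) for 29330 Ensembl transcripts. The files pair these identifiers with no gene, and 0 of them matched the 47357 genes of the RefSeq table at hand, so transcripts are described by identifier, level and behaviour. The identity of the cells was not checked against smooth muscle markers, and the Cklf transcript was not identified, for the same reason. Of the 29330 transcripts, 13575 averaged 1 FPKM or more over the 6 samples and were tested. Changes were computed from log2(FPKM + 1), so those of low transcripts are understated. Called transcripts are those with a limma adjusted p (Benjamini-Hochberg) below 0.05. In RNA from whole cultures, fewer cells of a type and less RNA per cell cannot be told apart.

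The 6 samples split by virus. Over the tested transcripts, samples of 1 group correlated at 0.981 to 0.985 (Pearson's r across transcripts, log2 scale), and samples of different groups at 0.970 to 0.975. Of the variance, 44.2% lay on the first principal component, with the Ad-GFP samples at 18.1 to 19.7 and the Ad-Cklf1 samples at -20.3 to -17.7. The second component held 16.6% and set Ad-GFP replicate 1 (22.6) apart from Ad-GFP replicates 2 (-16.2) and 3 (-6.59), while the Ad-Cklf1 samples lay between -2.58 and 1.74. Replicates of Ad-GFP had a median standard deviation of 0.088 log2 units and those of Ad-Cklf1 one of 0.078. The relative sequencing depth, a rough estimate from ratios of low values, was 1.00, 0.973 and 1.28 in Ad-GFP replicates 1 to 3. In Ad-Cklf1 replicates 1 to 3 it was 0.835, 0.758 and 0.717. By this estimate depth differed between the groups without overlap, though Ad-GFP alone ranged from 0.973 to 1.28. The number of transcripts listed at 0 did not overlap either, at 8164 to 8680 in Ad-GFP and 9017 to 9194 in Ad-Cklf1. The part of depth in the results below was not tested.

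A single transcript, ENSRNOT00000017127, went from a low level to one of the highest in the cells. It stood at 4.98, 4.87 and 6.92 FPKM in Ad-GFP and at 3040, 2911 and 3523 FPKM in Ad-Cklf1. The 3 Ad-Cklf1 samples lay far above the 3 Ad-GFP samples, and within each group the values stayed close together. Its rank by FPKM moved from between 8383 and 9550 in the Ad-GFP samples to 13, 12 and 9 in the Ad-Cklf1 samples. It made up 0.577% to 0.683% of all FPKM in Ad-Cklf1. The rise was a log2 fold change of 8.91 with an SE of 0.14 (limma, adjusted p = 1.61e-05, n = 3 per group) and a ratio of means of 565. No file used here names its gene, so it is not established that this is the transcript carried by the virus. In the TNF-treated samples it was at 5.40, 2.73 and 5.63 FPKM with the scrambled hairpin and at 1.52, 0.966 and 1.84 FPKM with the hairpin against Cklf1. A fit of those 6 samples alone gave a log2 fold change of -1.16 (limma adjusted p = 0.0349).

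No other called rise came near it. Apart from that transcript, the called rise with the largest difference in FPKM was ENSRNOT00000042459, among the 3 most abundant transcripts in all 6 samples. It was at 5647, 5244 and 5341 FPKM in Ad-GFP and at 6252, 6168 and 6131 FPKM in Ad-Cklf1. The groups did not overlap, with a gap of 484 FPKM between the lowest Ad-Cklf1 and the highest Ad-GFP sample. The mean was 14.3% higher in Ad-Cklf1 (log2 change 0.19 with SE 0.05, limma, adjusted p = 0.0393). The call was lost in each of the 5 fits that left out a sample other than Ad-GFP replicate 1 (limma adjusted p 0.0919 to 0.127, where the alternatives as a whole spanned 0.00649 to 0.127). Its level was lower in the TNF-treated samples, which also carried other viruses. There it was at 3153 to 3304 FPKM with the scrambled hairpin and 4123 to 4286 FPKM with the hairpin against Cklf1.

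The deepest fall took a well expressed transcript to near 0. ENSRNOT00000004278 stood at 228, 117 and 164 FPKM in Ad-GFP and at 0.00705, 0.0166 and 0.270 FPKM in Ad-Cklf1. Every Ad-GFP sample was above 100 FPKM and every Ad-Cklf1 sample below 1. This was a log2 fold change of -7.24 with an SE of 0.25 (limma, adjusted p = 0.000333). Outside Ad-GFP it exceeded 1 FPKM in a single sample of the series, knockdown replicate 1, at 26.5 FPKM. The other 2 knockdown samples were at 0.00260 and 0.00173 FPKM, so replicates of 1 group also differed by orders of magnitude. Transcript FPKM divides the reads of a gene among its isoforms, and whether reads of ENSRNOT00000004278 went to another isoform was not tested.

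The largest fall in absolute FPKM was that of ENSRNOT00000044608, which ranked 34 to 36 by FPKM in the Ad-GFP samples and 99 or 100 in the Ad-Cklf1 samples. It was at 1279, 1480 and 1506 FPKM in Ad-GFP and at 666, 669 and 664 FPKM in Ad-Cklf1. The Ad-Cklf1 samples spanned 4.78 FPKM, and the lowest Ad-GFP sample was 610.0 FPKM above the highest of them. The fall was a log2 fold change of -1.09 with an SE of 0.07 (limma, adjusted p = 0.00176), and it stayed between -1.16 and -1.05 when any of the 6 samples was left out, with the call kept each time. It was lower still in the TNF-treated samples, which also carried other viruses. There it was at 482 to 494 FPKM with the scrambled hairpin and 573 to 592 FPKM with the hairpin against Cklf1.

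**Figure D1:**
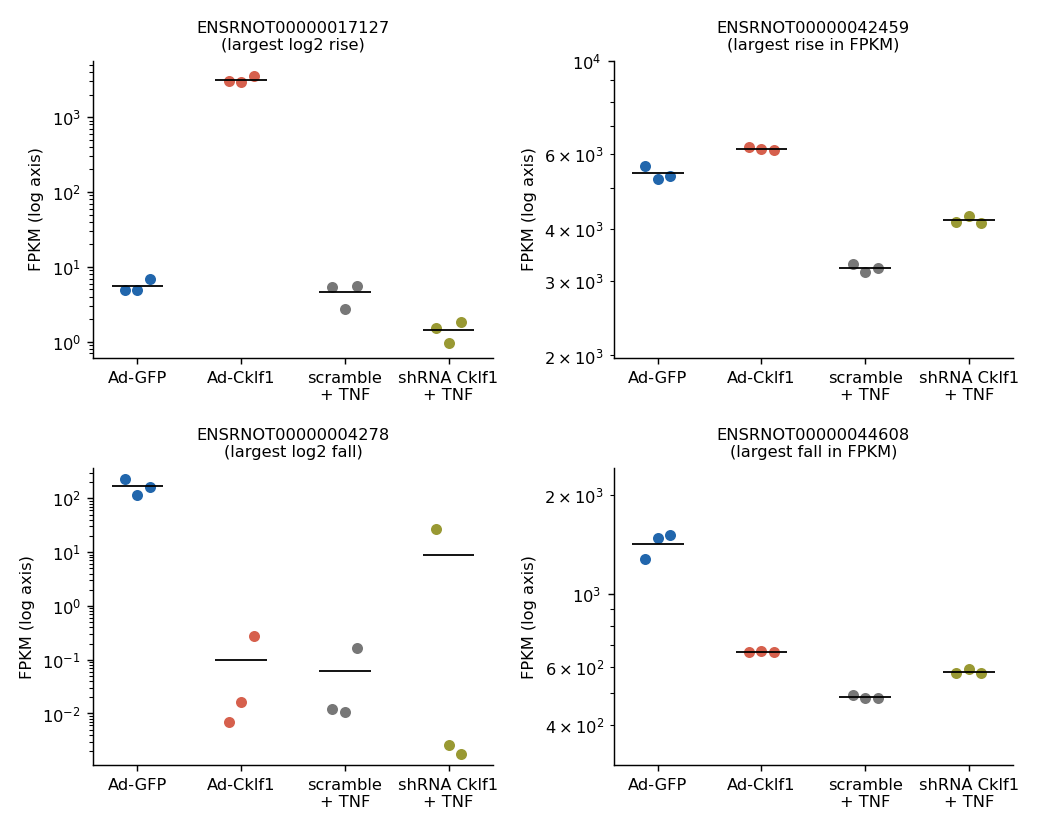
FPKM (log axis) of the 4 named transcripts in each of the 12 samples of the series, by group, with dots for samples and a line at the group mean. ENSRNOT00000017127 is at 2911 to 3523 FPKM in Ad-Cklf1 and below 7 FPKM in the 9 other samples; ENSRNOT00000004278 is at 117 to 228 FPKM in Ad-GFP and at 26.5 FPKM or less in all other samples.

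Beyond these, many transcripts moved by small amounts. In Ad-Cklf1, 1051 transcripts were called higher (7.74% of those tested) and 1618 lower (11.9%), together 19.7% of the 13575. The groups did not overlap for any of the 2669 called transcripts, and they did not overlap for 42.6% of all tested ones. The median called rise was 0.30 log2 units, a fold of 1.23, and the median called fall was 0.40 log2 units, a fold of 1.32. Falls were also more often sizeable. Of the called rises 118 (11.2%) reached 0.5 log2 units, against 554 (34.2%) of the called falls. The median log2 fold change of all tested transcripts was -0.001.

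**Figure D2:**
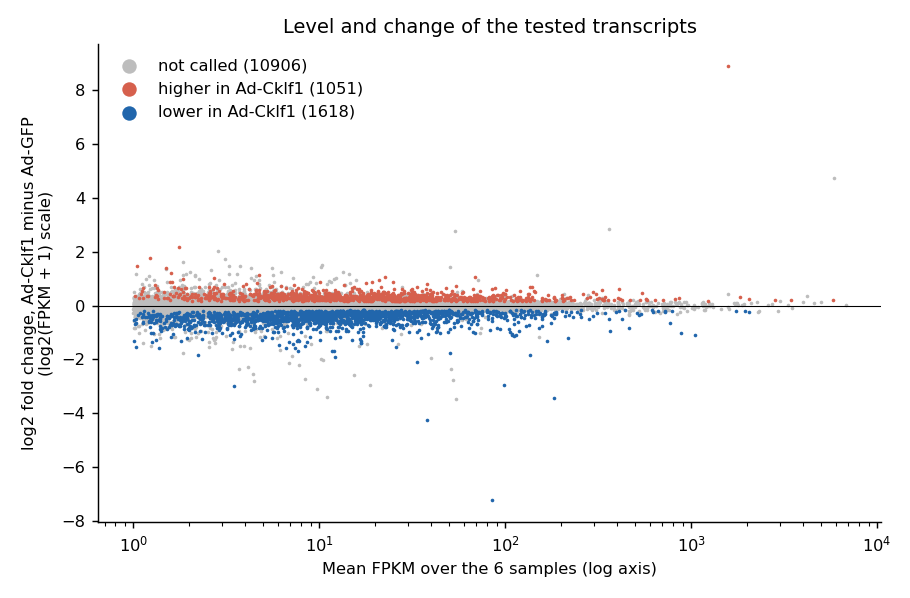
Each dot is 1 of the 13575 tested transcripts, with its mean FPKM over the 6 samples on a log axis and its log2 fold change between Ad-Cklf1 and Ad-GFP. Most dots lie within 0.27 log2 units of 0, ENSRNOT00000017127 stands alone at 8.91, and the area below 0 holds more of the called transcripts beyond 1 log2 unit (70 falls, 10 rises).

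With the values as deposited and all 6 samples, the share of falls among the calls was greatest in low transcripts. Of the 6749 transcripts at 1 to 10 FPKM, 365 were called higher and 706 lower. At 10 to 100 FPKM, 588 of 6064 were higher and 803 lower. At 100 FPKM and over, 98 of 762 were higher and 109 lower, so that rises made up 34.1%, 42.3% and 47.3% of the calls from the lowest to the highest level. This order did not hold in every fit. Without Ad-GFP replicate 3 rises were 27.6%, 26.9% and 29.2% of the calls, with 121 rises and 318 falls at 1 to 10 FPKM and 129 and 351 at 10 to 100 FPKM. With upper-quartile scaling over every listed transcript, falls outnumbered rises at 1 to 10 FPKM (630 against 509), and rises outnumbered falls at 10 to 100 FPKM (885 against 658) and at 100 FPKM and over (145 against 87). By the rough estimate of depth, the Ad-Cklf1 samples were also the shallower ones, and the part of depth in this pattern was not tested. Among the 100 most abundant transcripts, at a mean of 702 FPKM or more, 10 were called higher and 9 lower, a share of 19.0% against 19.7% of all tested. ENSRNOT00000017127 and ENSRNOT00000044608 mark the ends of their range of called changes, at 8.91 and -1.09 log2 units.

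**Figure D3:**
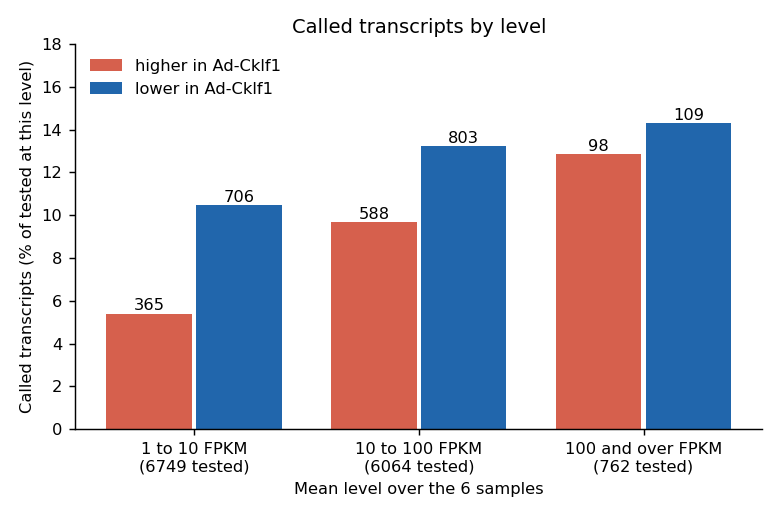
Bars give the share of tested transcripts called higher (red) or lower (blue) in Ad-Cklf1 at 3 levels of mean FPKM, with the number of transcripts above each bar. The pair of bars differs most at 1 to 10 FPKM (365 against 706) and least at 100 FPKM and over (98 against 109).

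Which direction held more calls depended on the scaling. As deposited, rises were 39.4% of the calls. Upper-quartile scaling over the tested transcripts gave 41.8% and median-ratio scaling 41.6%. Upper-quartile scaling over every listed transcript, zeros included, was chosen after seeing the data and gave 52.8%, with 1539 rises and 1375 falls. That upper quartile was 8.86 to 8.99 FPKM in Ad-GFP and 8.68 to 8.71 FPKM in Ad-Cklf1, whereas over the tested transcripts it was 24.4 to 24.6 and 24.3 to 24.4 FPKM. The surplus of large falls did not depend on it, as the same scaling left 65 falls and 12 rises of at least 1 log2 unit.

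The number of called transcripts also depended on single samples. Without Ad-GFP replicate 1, 1069 rose and 1528 fell. Without Ad-GFP replicate 2 the counts were 460 and 950, and without Ad-GFP replicate 3 they were 271 and 720. Without Ad-Cklf1 replicate 1, 2 or 3, rises numbered 337, 290 and 477 and falls 891, 813 and 1069. Ad-GFP replicate 1, which stood apart on the second component, was thus the sample whose removal changed the counts least. In all 6 fits with a sample left out, 190 rises (18.1% of those called) and 633 falls (39.1%) were called each time. These had a median change of 0.45 and 0.56 log2 units, larger than the medians of all called rises and falls. Calls kept with fewer samples tend to be the larger changes, so the selection itself favours this difference.

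**Figure D4:**
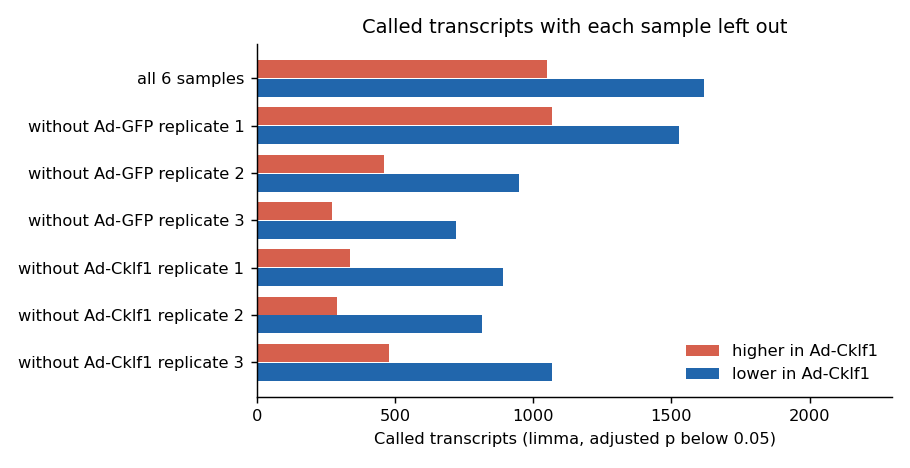
Bars count the transcripts called higher (red) and lower (blue) in Ad-Cklf1 with all 6 samples and with each sample left out. Falls outnumber rises in each of the 7 fits, and rises range from 271 to 1069.

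Changes of at least 1 log2 unit were rare and mostly falls: 10 transcripts rose by as much (0.0737% of those tested) and 70 fell (0.516%). These counts depended on the treatment of low values, with 17 rises and 139 falls for a pseudocount of 0.1 and 3 and 38 for a filter at 10 FPKM, and without Ad-Cklf1 replicate 2 there were 6 rises. The 70 had a mean between 1.86 and 1422 FPKM in Ad-GFP, with a median of 12.7 FPKM. In Ad-GFP 45 of them were at 10 FPKM or more and 12 at 100 FPKM or more. Most were reduced rather than lost, since 54 were at 1 FPKM or more in every Ad-Cklf1 sample and the median ratio of the group means was 2.81. Of the 70 falls, 55 were called in every fit that left out a sample, and of the 10 rises 5 were.

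Replicates of the steepest falls differed in how tightly they agreed. ENSRNOT00000004278, whose replicates spread widely in both groups, and 5 further transcripts fell by at least 2 log2 units. The second in order went from 68.6, 77.5 and 74.1 FPKM in Ad-GFP to 3.62, 2.50 and 2.75 FPKM in Ad-Cklf1 (log2 change -4.24 with SE 0.11, limma, adjusted p = 0.000101). The third in order went from 314, 333 and 358 FPKM in Ad-GFP to 29.3, 30.9 and 29.8 FPKM in Ad-Cklf1 (log2 change -3.44 with SE 0.06, limma, adjusted p = 1.77e-05). The fourth went from 8.40, 5.72 and 6.86 FPKM to at most 0.0118 FPKM (log2 change -2.98 with SE 0.12). It passed the filter at 1 FPKM only through its Ad-GFP samples. The fifth went from 164, 176 and 187 FPKM to 22.3, 20.6 and 23.3 FPKM (log2 change -2.94 with SE 0.07, limma, adjusted p = 8.33e-05). In the third and the fifth, unlike ENSRNOT00000004278, the replicates lay close together and a clear level remained in Ad-Cklf1. The sixth in order went from 51.8, 58.4 and 54.8 FPKM to 11.6, 11.0 and 14.4 FPKM (log2 change -2.08 with SE 0.11, limma, adjusted p = 0.00102).

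The rises of at least 1 log2 unit were mostly of low transcripts. In Ad-Cklf1 3 of the 10 had a mean of 10 FPKM or more. Besides ENSRNOT00000017127, the most abundant of them rose from 53.1, 33.7 and 45.6 FPKM to 78.4, 101 and 101 FPKM (log2 change 1.08 with SE 0.19, limma, adjusted p = 0.0155). The other of the 3 was at 15.2, 9.04 and 20.0 FPKM in Ad-GFP and at 34.5, 27.1 and 30.2 FPKM with Cklf1 (log2 change 1.06 with SE 0.27, limma, adjusted p = 0.0447). Of the 7 low rises, 3 were at 0.1 FPKM or less in every Ad-GFP sample. These 3 passed the filter only through their Ad-Cklf1 samples.

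**Figure D5:**
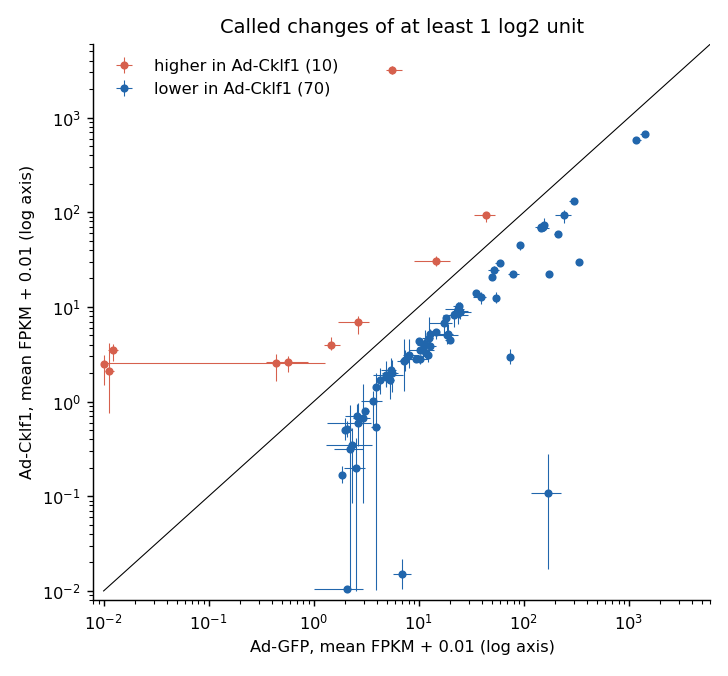
Mean FPKM (plus 0.01, log axes) in Ad-GFP and Ad-Cklf1 of the 80 called transcripts that changed by at least 1 log2 unit, with lines from the lowest to the highest replicate; the diagonal marks equal levels. Most of the 70 falls lie in a band below the diagonal, with a median ratio of 2.81, and ENSRNOT00000004278 lies far below it.

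A switch between near 0 and a clear level set the groups apart for few transcripts. Only 2 tested transcripts were above 1 FPKM in all Ad-Cklf1 samples and at 0.1 FPKM or less in all Ad-GFP samples, and 1 showed the reverse. All 3 were called. They passed the filter at 1 FPKM only through the group where they were high, so the calls add little to the pattern itself. The larger of the 2 rises went from at most 0.00360 FPKM in Ad-GFP to 2.65, 4.05 and 3.88 FPKM (log2 change 2.16 with SE 0.13, limma, adjusted p = 0.00141). The transcript with the reverse pattern was the fourth of the steepest falls above. It went from 8.40, 5.72 and 6.86 FPKM to at most 0.0118 FPKM (log2 change -2.98 with SE 0.12, limma, adjusted p = 0.000517). Both also spanned such a range among replicates treated with TNF. The first was at 0.00413, 7.89 and 4.98 FPKM with the scrambled hairpin, and the second at 3.18, 0.00745 and 4.47 FPKM. Replicates of 1 group could differ in this way too, counting any pair of replicates. Within Ad-GFP, 114 tested transcripts were above 1 FPKM in 1 replicate and at 0.1 FPKM or less in another, and within Ad-Cklf1 125 were.

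A wide spread between replicates was also seen at the top of the range, in ENSRNOT00000091327, singled out after its values were seen because it reached the highest FPKM of the series. It was at 22.4, 410 and 1839 FPKM in Ad-GFP and at 16197, 1318 and 15552 FPKM in Ad-Cklf1. It ranked first in Ad-Cklf1 replicates 1 and 3 and 37th in replicate 2, and the groups overlapped. Its log2 fold change of 4.73 (95% confidence interval 0.30 to 9.17) did not pass the test (limma adjusted p = 0.119). With TNF it ranged from 447 to 123430 FPKM.

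The data also bound the changes of most transcripts that were not called. The 95% confidence interval of the log2 fold change reached a median of 0.18 log2 units to either side of the estimate. For 8552 of the 10906 transcripts not called (78.4%), the interval lay within 0.5 log2 units of 0, and for 10292 (94.4%) within 1 log2 unit. These bounds hold on the log2(FPKM + 1) scale, which understates changes of low transcripts. On it, the full loss of a transcript at 1 FPKM is a change of only 1 log2 unit. Precision on this scale rose with level, as this median was 0.24 log2 units at 1 to 10 FPKM, 0.15 at 10 to 100 FPKM and 0.12 at 100 FPKM and over. With a pseudocount of 0.1 the median at 1 to 10 FPKM was wider, at 0.31 log2 units.

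In terms of the summed FPKM of a sample, the called transcripts were a modest part. They held 23.8% to 24.0% of all FPKM in Ad-GFP and 22.7% to 23.3% in Ad-Cklf1. Summed over group means, the called rises added 14772 FPKM, of which ENSRNOT00000017127 made up 21.3%. The called falls came to -17274 FPKM, of which ENSRNOT00000044608 made up 4.37%. The 10 largest made up 42.2% of the called rises and 20.3% of the called falls. Leaving out the largest transcript of each direction, the next 10 made up 27.6% and 17.7%, so much of that contrast rested on ENSRNOT00000017127.

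The samples with TNF share no library with this comparison and give the same transcripts a second setting. In the fit of those 6 samples, knockdown was called higher than scramble for 10.0% of the 13575 transcripts, and lower for 7.91%, by the same threshold. Of the 70 large falls with Cklf1, 29 (41.4%) were called higher in the knockdown, 0 were called lower and 41 were not called. Their median log2 fold change in the knockdown was 0.50, against 0.01 over all tested transcripts. Of the 10 that rose as much, 1 was called higher, 1 lower (ENSRNOT00000017127) and 8 were not called. ENSRNOT00000044608 was among the 29 (log2 change 0.25, limma adjusted p = 0.0216), and ENSRNOT00000004278 was not (log2 change 1.51, limma adjusted p = 0.464). TNF was present in those samples and absent here, so the settings differ in more than the direction in which Cklf1 was changed.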

How the data were processed

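RNA was selected with oligo(dT), primed with random hexamers and sequenced by Illumina, per the labels' protocols; no strand-marking step is mentioned there. The deposited values were read as FPKM from their decimals and from the identifier column's name. The submitters' processing notes name the build Rnor 6.0. Aligner, quantifier, annotation release and any scaling: not given in the sources used here. An FPKM value holds no read count, so depth is unknown beyond the relative estimate, and no counting intervals are given. That estimate is the inverse of the most frequent ratio of a sample's values to those of Ad-GFP replicate 1. It used transcripts between 0.001 and 0.1 FPKM in both samples.

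Transcripts averaging 1 FPKM or more over the 6 samples were tested on log2(FPKM + 1) with limma 3.58.1 (R 4.3.3), 1 mean per group and 4 residual degrees of freedom, and p-values were adjusted over all 13575. The procedure was tested on simulated data. The fit of the 6 samples with TNF used the same transcripts. The rule for names took, in each direction among called transcripts whose groups did not overlap, the largest log2 fold change and the largest difference in FPKM; steep changes outside it are given by rank. Planned gene lists were not used, for lack of gene names, and neither were the count tests, for lack of counts. The comparison and these choices were made with earlier results of these data known. Alternatives were 2 other filters, another pseudocount, 3 scalings, a fit of all 12 samples, a trended robust prior, a replicate block and leaving out each sample.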

Additional observations from a re-analysis of the deposited data

How the results depend on the processing

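The named transcripts kept their direction under the 15 alternatives tried for each. The filters, the fit of 12 samples, the trend and the replicate block leave a fold change as it is by construction. ENSRNOT00000042459 lost its call with the block (limma adjusted p = 0.0911) and in 5 fits with a sample left out; the other 3 kept theirs. A pseudocount of 0.1 took ENSRNOT00000004278 to -9.94 and gave 17 rises and 139 falls of at least 1 log2 unit, as it shrinks low values less. A filter at 10 FPKM, which tests fewer transcripts, left 3 and 38. The replicate numbers paired the samples weakly if at all. Correlations of deviations were 0.003, 0.048 and 0.063 for like numbers and -0.087 to 0.033 for unlike ones. The replicate block, which uses up degrees of freedom, gave 324 rises, 864 falls and 6 rises of at least 1 log2 unit. Leaving out a sample gave 271 to 1069 rises, 720 to 1528 falls, and 6 to 15 rises and 58 to 80 falls of at least 1 log2 unit; 1 degree of freedom is lost each time, and no other cause was tested. The lowest count of large rises, 6, came without Ad-Cklf1 replicate 2. Upper-quartile scaling over every listed transcript was chosen after seeing the data. Depth is unknown beyond a rough relative estimate, and no isoform was resolved to a gene. The planned sum per gene and the planned count tests were not run.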
